A study of Bos taurus with 6 samples.

Results

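Activins and TGF-β ligands are secreted growth factors, and the 10 genes described here encode 5 of these ligand chains, 2 secreted antagonists of activin, both TGF-β receptor kinases and 1 secreted matrix protein named for its induction by TGF-β. The genes were picked by name from earlier results of this same comparison, so their levels and fold changes are a description and carry no test. All 10 were found among the 17663 genes of the deposited table, and all 10 passed the filter on low counts that kept 13482 genes for testing. RNA was sequenced from bovine fetal fibroblasts (bEFs), connective tissue cells cultured from cattle fetuses aged 50 to 60 days. FT cells came from 3 fetuses carrying fat-1, a desaturase gene from Caenorhabditis elegans whose enzyme turns n-6 PUFA into n-3 PUFA, while the WT cells were from 3 wild-type fetuses of Luxi cattle without it. Each fetus was a separate animal and gave 1 poly(A) library, so n = 3 per group, and the question put to these genes is how FT cells differed from WT cells. The promoter driving fat-1, the breed of the FT fetuses and whether those fetuses shared a founder were not given in the sources used here. The cells were a primary culture from the fetal trunk without its viscera and skeleton, so other cell types of skin and body wall could be present.

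Activin is a dimer of inhibin β chains that binds type II receptors, which then activate type I receptors and the transcription factors SMAD2 and SMAD3. Follistatin and its relative FSTL3 bind activin and keep it from its receptors. TGF-β ligands reach the same SMADs through TGFBR2 and TGFBR1 after release from a latent complex in the matrix, and in fibroblasts they are known for driving matrix synthesis and the contractile myofibroblast state.

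The libraries held total counts of 63366834, 48167642 and 54204446 in FT_1, FT_2 and FT_3, and 69777641, 51310741 and 54271927 in WT_1, WT_2 and WT_3. At this depth the lowest count of any of the 10 genes in a library was 256 (TGFB2 in FT_2), for which counting error alone is 6.25%, and such errors leave out the spread between fetuses. FT_1 stood apart from the other libraries of its group. The biological coefficient of variation, which is the relative spread of a gene beyond counting noise, was 56.9% between FT_1 and FT_2 and 57.6% between FT_1 and FT_3. It was 8.25% between FT_2 and FT_3 and 9.99% to 13.4% between WT libraries. As a check for a library deposited more than once, the mean chi-square per gene was at least 11.5 in each pair of a group, where a repeat would give about 1, and all 6 libraries were counted separately. Because FT_1 stood apart, fold changes of the 10 genes are given with and without FT_1, a choice made after the data were seen. For other genes the value without FT_1 is given only where stated.

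The label fibroblast was checked against marker genes. Titles and source names of the samples give it, but their extraction protocol speaks of an adipose type, and no adipocyte markers were on the lists. All 10 fibroblast markers on the list were detected in all 6 libraries, and their summed level in FPKM (fragments scaled to the gene's length and the depth of the library) was 6799 in FT_1, with 17025 and 16750 in FT_2 and FT_3, against 17784, 17250 and 17327 in WT_1 to WT_3. VIM had the highest mean over the 6 libraries, with DCN above it in FT_1 and FT_2, and was at 1243.94 in FT_1, 3850.19 in FT_2, 4170.95 in FT_3 and 7311.82 to 8177.52 in WT libraries. COL1A1, COL1A2, COL3A1, DCN, LUM and PDGFRB were lowest in FT_1 of the 6 libraries as well, with FPKM of 914.12, 1176.65, 433.01, 1803.48, 550.85 and 22.82. TWIST1 was also lowest there at 23.18, whereas PDGFRA (217.73) and THY1 (413.27) were highest there.

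Epithelial markers showed the opposite order. The 6 on the list summed to an FPKM of 427.0, 12.5 and 11.8 in FT_1, FT_2 and FT_3, and to 10.1, 7.83 and 13.9 in the WT libraries, and all 6 were highest in FT_1. KRT5, a keratin of basal epithelial cells and the most abundant of the list in FT_1, had an FPKM of 171.54 in FT_1, with 2.57 and 1.63 in FT_2 and FT_3. Its usual partner KRT14 had 128.14, 1.76 and 1.11, and KRT8 had 84.14, 0.95 and 0.61. KRT5, KRT14, KRT8 and EPCAM were at 0 counts in all 3 WT libraries, and the epithelial sum was almost all CDH1 in WT cells and mostly CDH1 in FT_2 and FT_3 (7.11 and 8.41). EPCAM, a defining surface marker of epithelium, was at 0.57 in FT_1 and at 0 in FT_2 and FT_3.

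MSLN, the leading mesothelial marker, had an FPKM of 198.65, 44.93 and 46.18 in FT_1, FT_2 and FT_3 against 2.08 to 3.18 in WT libraries. The mesothelial gene WT1 was near the floor in both groups, at 0 in all FT libraries and 0.03 to 0.05 in WT libraries. UPK3B was at 1.03, 0.10 and 0.09 in FT_1 to FT_3 and 0.20 to 0.25 in WT libraries. Smooth muscle and pericyte markers, of which ACTA2 was the most abundant, summed to 1580 in FT_1, 2696 and 2649 in FT_2 and FT_3 and 596, 556 and 671 in WT libraries. Of these, MYH11 was at 0.07 in FT_1, 1.58 in FT_2, 1.46 in FT_3 and 0.12 to 0.18 in WT libraries. The sum was mostly ACTA2. CSPG4 was at 2.46, 3.21 and 3.19 in FT_1 to FT_3 against 9.39 to 11.26 in WT libraries, and RGS5 at 0.03, 8.49 and 7.88 against 4.21 to 5.15. CSPG4 was called lower by edgeR, at -1.63 on the log2 scale (adjusted p = 0.00108), and at -1.50 without FT_1. MYH11 was called higher by edgeR without FT_1 (3.48) but not with all libraries (adjusted p = 0.0694). Leukocyte markers, led by LAPTM5, summed to 5.17, 10.3 and 9.78 in FT_1 to FT_3 and to 24.7, 23.1 and 23.2 in WT_1 to WT_3. Endothelial markers, led by PECAM1, were all under an FPKM of 1 in every library. Skeletal muscle (led by DES), chondrocyte (led by SOX9) and glial (led by S100B) markers summed to at most 5.77, 2.29 and 12.9 in any library. The lists on muscle split at low levels. Besides ACTA2 and CNN1, given below, edgeR called higher in FT cells DES, at 5.74, 4.01 and 3.17 in FT_1 to FT_3 against 0.07 or less in WT libraries, and MYOCD, named after its values were seen, at 0.64, 0.60 and 0.52 against 0.02 or less. MYF5, the other skeletal muscle gene in the table and also named after its values were seen, was at 0.03, 0.59 and 0.61 against 1.06 to 1.93, and was called lower without FT_1 only. In bulk RNA, a change in the number of cells of a type and a change in RNA per cell cannot be told apart, and the part of these other cell types in the values below was not tested.

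**Figure D1:**
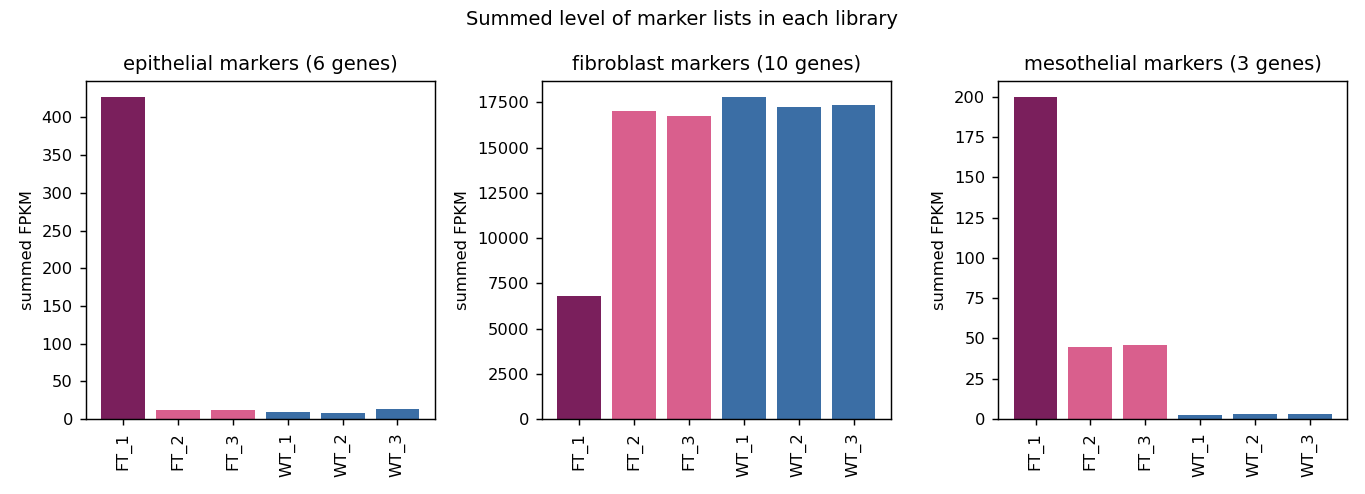
Summed FPKM of the epithelial, fibroblast and mesothelial marker lists in each library, as bars from 0 (dark bar FT_1, pink FT_2 and FT_3, blue WT). The epithelial sum is 427.0 in FT_1 and at most 13.9 in any other library, and the fibroblast sum is lowest in FT_1.

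INHBA (ENSBTAG00000048508, chromosome 4, 79288772 to 79302445 in the authors' table) encodes the βA chain of activin A. Its FPKM was 55.55, 60.80 and 61.92 in FT_1, FT_2 and FT_3, and 7.32, 7.08 and 7.34 in WT_1, WT_2 and WT_3. All FT libraries lay far above all WT libraries, and FT_1 was close to the other FT libraries here. The FT mean was 59.4 ± 3.40 (SD, n = 3) and the WT mean 7.25 ± 0.145, a ratio of 8.20. The log2 fold change from edgeR was 3.20 (standard error 0.09, 95% interval 2.98 to 3.41) with all libraries and 3.25 without FT_1. INHBA stood at the 94.2 percentile of all genes by mean FPKM in FT cells and at the 61.1 percentile in WT cells. Among the 10 genes it ranked 1 in FT_2 and FT_3 and 3 in FT_1, but 7 or 8 in the WT libraries.

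INHBB (ENSBTAG00000049058, chromosome 2, 72108054 to 72113653) encodes the βB chain, which forms activin B. Its FPKM was 30.43 in FT_1, with 13.54 and 11.83 in FT_2 and FT_3, against 5.39, 4.61 and 6.08 in WT_1 to WT_3. The groups did not overlap, and FT_1 was more than 2-fold above the other FT libraries. On the log2 scale the fold change was 1.94 (standard error 0.38, 95% interval 1.01 to 2.88), or 1.41 without FT_1. INHBA made up 64.6% of the summed FPKM of both chains in FT_1, 81.8% and 84.0% in FT_2 and FT_3, and 57.6%, 60.6% and 54.7% in the WT libraries. The share was thus higher in every FT library than in any WT library, and it needs no scaling between libraries.

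Follistatin (FST, ENSBTAG00000003329, chromosome 20, 25580150 to 25586931), the secreted protein that binds activin almost irreversibly, divided the FT libraries. Its FPKM was 110.86, 16.81 and 16.12 in FT_1, FT_2 and FT_3, and 37.56, 51.19 and 41.54 in the WT libraries. FT_1 lay above all WT libraries while FT_2 and FT_3 lay below all of them, so the groups overlapped. Its log2 fold change was 0.28 (standard error 0.78, 95% interval -1.63 to 2.20) with all libraries and -1.23 (95% interval -1.49 to -0.97) without FT_1. The FT mean of 47.9 ± 54.5 therefore describes none of the 3 libraries. With limma on FPKM the value was also below 0, at -0.44 with a pseudocount of 1.

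FSTL3 (ENSBTAG00000003018, chromosome 7, 43279471 to 43285849) encodes a follistatin-like antagonist of activin and myostatin. It had an FPKM of 48.91 in FT_1, with 25.49 and 26.25 in FT_2 and FT_3, against 15.75, 15.72 and 16.58 in WT_1 to WT_3. All FT libraries were above all WT libraries, with FT_1 the highest. On the log2 scale FT cells exceeded WT cells by 1.22 (standard error 0.26, 95% interval 0.58 to 1.86) and 0.86 without FT_1.

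Set against its antagonist within each library, INHBA had an FPKM 0.501 times that of FST in FT_1, 3.62 times in FT_2 and 3.84 times in FT_3. In the WT libraries the ratio was 0.195, 0.138 and 0.177. FT_1 sat between the other FT libraries and the WT libraries, and the groups did not overlap. The sum of INHBA and INHBB over the sum of FST and FSTL3 was 0.538, 1.76 and 1.74 in FT_1, FT_2 and FT_3, and 0.238, 0.175 and 0.231 in the WT libraries. These ratios compare transcript levels per gene length and not proteins.

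**Figure D2:**
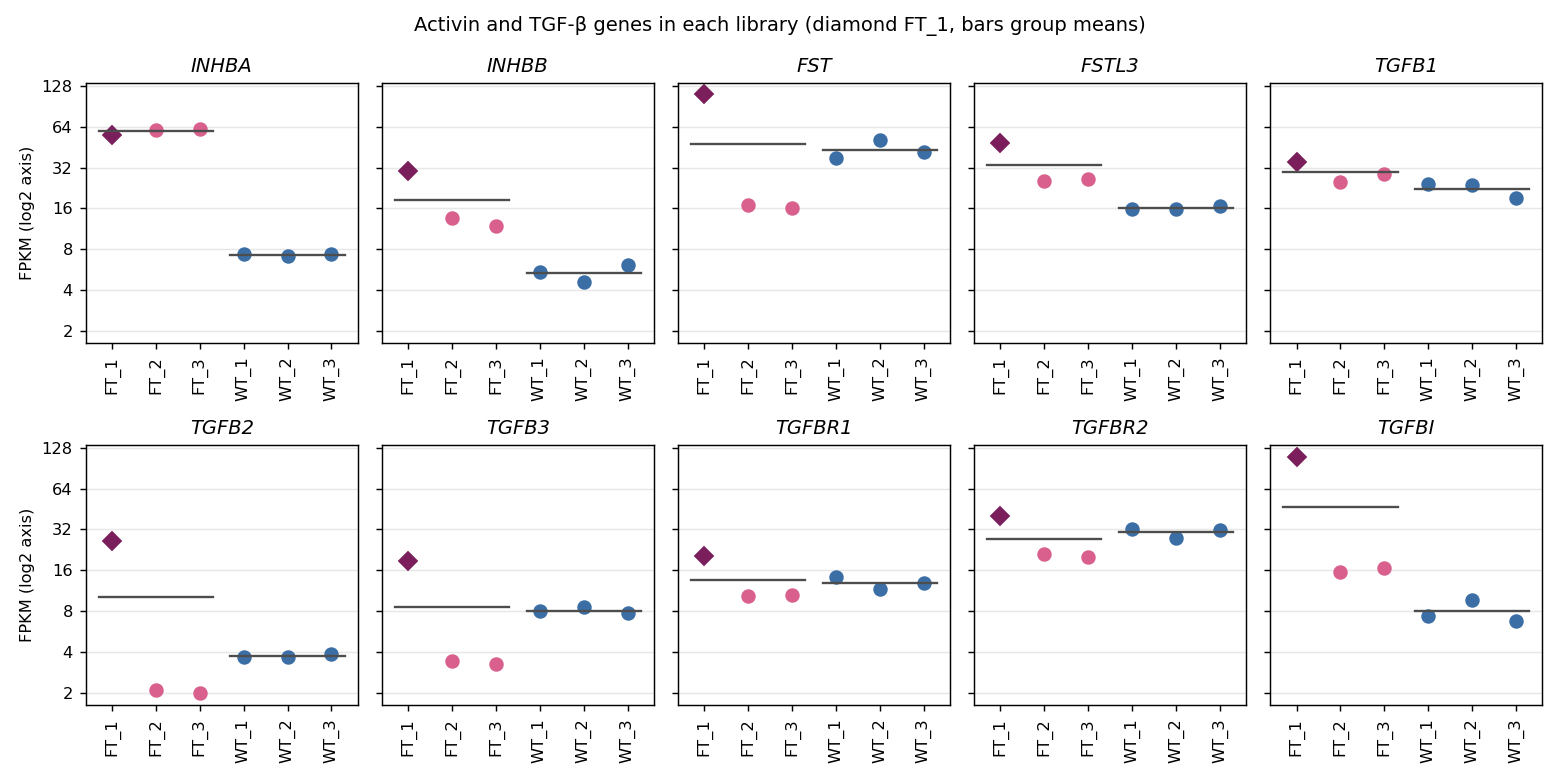
FPKM of the 10 genes in each library on a log2 axis, with 1 point per library (diamond FT_1, pink FT_2 and FT_3, blue WT) and lines at the group means. INHBA is high in all 3 FT libraries, whereas FST, TGFB2, TGFB3, TGFBR1 and TGFBR2 are above all WT libraries in FT_1 and below all of them in FT_2 and FT_3.

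TGFB1 (ENSBTAG00000020457, chromosome 18, 50484512 to 50508692, 4 transcripts in the authors' table) encodes the most widely expressed TGF-β ligand. Its FPKM was 35.16 in FT_1, with 24.84 and 28.49 in FT_2 and FT_3, and 24.15, 23.81 and 19.04 in WT_1 to WT_3. The groups did not overlap, but FT_2 exceeded WT_1 only slightly. Its fold change on the log2 scale was 0.56 (standard error 0.15, 95% interval 0.18 to 0.94) and 0.43 without FT_1. TGFB1 overlaps CCDC97 on the opposite strand over 3805 bases. CCDC97 itself had an FPKM of 11.89, 10.83 and 12.11 in FT_1 to FT_3 and 8.10, 8.61 and 9.06 in WT_1 to WT_3. Whether strand was used in counting was not stated, so part of either value may come from reads of the other gene.

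TGFB2 (ENSBTAG00000005359, chromosome 16, 21808003 to 21900539), a ligand that needs the co-receptor betaglycan for strong binding to TGFBR2, had an FPKM of 26.22, 2.10 and 1.98 in FT_1, FT_2 and FT_3. The WT libraries had 3.69, 3.65 and 3.87. FT_1 was 12.9 times the mean of the other FT libraries, which in turn lay below all WT libraries. The log2 fold change of 1.57 had a standard error of 1.04 (95% interval -0.98 to 4.13), and without FT_1 it was -0.70 (standard error 0.14).

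TGFB3 (ENSBTAG00000012004, chromosome 10, 87237844 to 87271480), a ligand known from palate fusion and scarless repair, had the same order of libraries. Its FPKM was 18.87 in FT_1, with 3.42 and 3.24 in FT_2 and FT_3, against 7.96, 8.52 and 7.71 in the WT libraries. FT_1 was again above every WT library and the other FT libraries were below every WT library. edgeR gave a log2 fold change of 0.22 (standard error 0.70) with all libraries and -1.10 (95% interval -1.32 to -0.88) without FT_1, and limma on log2(FPKM + 1) gave -0.33 with all libraries. TGFB3 overlaps IFT43 on the opposite strand over 8133 bases. IFT43 had an FPKM of 13.17, 10.58 and 9.72 in FT_1, FT_2 and FT_3 and 11.85, 14.70 and 13.28 in WT_1 to WT_3, a narrower range than that of TGFB3, and the same uncertainty about strand holds.

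The 3 TGFB ligands together had an FPKM of 80.2 in FT_1, with 30.4 and 33.7 in FT_2 and FT_3, and 35.8, 36.0 and 30.6 in the WT libraries. FT_1 was more than 2-fold above the rest, and the other FT libraries were within or next to the range of WT cells. TGFB1 supplied 43.8% of this sum in FT_1, 81.8% in FT_2 and 84.5% in FT_3, compared with 67.5%, 66.2% and 62.2% in the WT libraries. TGFB2 supplied 32.7% in FT_1 but 6.92% and 5.87% in FT_2 and FT_3, against 10.1% to 12.6% in WT cells. For these shares all WT libraries lay between FT_1 and the other FT libraries. TGFB3 supplied 23.5% in FT_1, 11.3% and 9.61% in FT_2 and FT_3 and 22.2%, 23.7% and 25.2% in the WT libraries, so FT_1 lay within the WT range here and the other FT libraries below it.

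**Figure D3:**
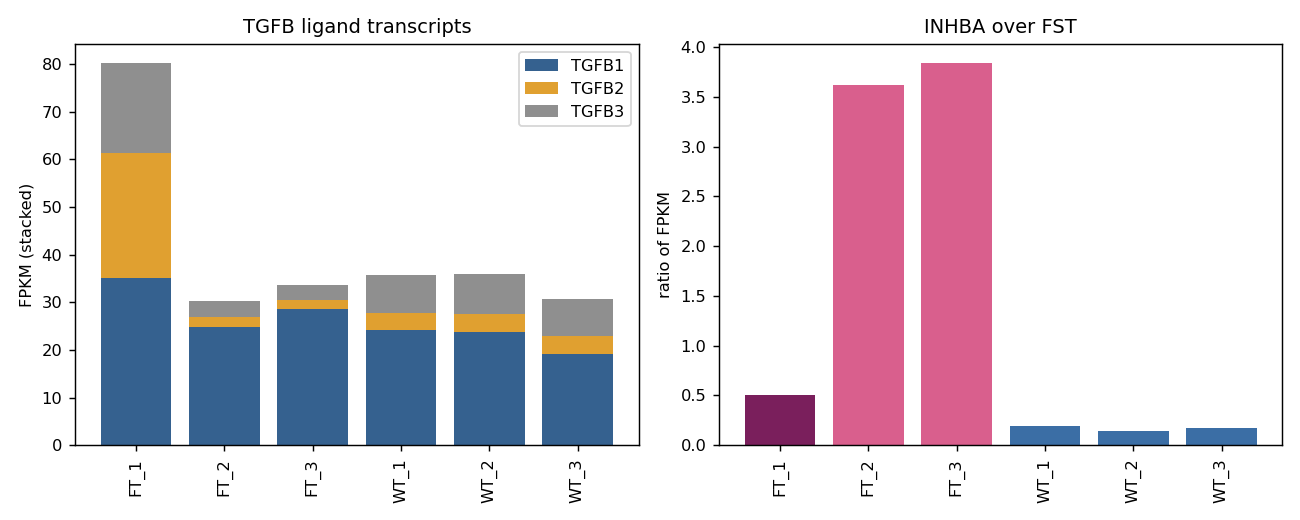
Left, FPKM of TGFB1, TGFB2 and TGFB3 stacked from 0 for each library. Right, ratio of the FPKM of INHBA to that of FST for each library, 0.501 in FT_1, 3.62 and 3.84 in FT_2 and FT_3 and at most 0.195 in WT libraries.

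TGFBR1 (ENSBTAG00000018035, chromosome 8, 64107418 to 64179245) encodes the type I receptor kinase that phosphorylates SMAD2 and SMAD3. Its FPKM was 20.23, 10.28 and 10.51 in FT_1, FT_2 and FT_3, against 14.24, 11.67 and 12.93 in WT_1 to WT_3. By FPKM FT_1 was again above and the other FT libraries below all WT libraries, over a narrower range than for FST, but with TMM scaling of the counts FT_3 was above WT_2 (25.2 and 24.6 CPM, the scaled counts). The log2 fold change was 0.23 (standard error 0.28, 95% interval -0.45 to 0.91) and -0.15 (95% interval -0.38 to 0.08) without FT_1.

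TGFBR2 (ENSBTAG00000019832, chromosome 22, 5091037 to 5184321), the type II receptor that binds the ligand first, had an FPKM of 40.23 in FT_1, with 21.03 and 20.02 in FT_2 and FT_3. In the WT libraries it was 32.14, 27.55 and 31.60. FT_1 was the highest and the other FT libraries the lowest of the 6. Its log2 fold change was -0.02 (standard error 0.28, 95% interval -0.69 to 0.66), or -0.40 without FT_1.

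TGFBI (ENSBTAG00000009513, chromosome 7, 47430704 to 47501496) encodes a secreted adhesion protein that TGF-β induces in many cell types. Its FPKM was 109.25, 15.54 and 16.72 in FT_1, FT_2 and FT_3, against 7.41, 9.69 and 6.80 in the WT libraries. All FT libraries were above all WT libraries, and FT_1 was 6.77 times the mean of FT_2 and FT_3. The log2 fold change of 2.71 (standard error 0.84, 95% interval 0.65 to 4.77) was 1.19 (95% interval 0.90 to 1.48) without FT_1.

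Counted together, 5 of the 10 genes (INHBA, INHBB, FSTL3, TGFB1 and TGFBI) had all FT libraries above all WT libraries, which was so for 21.8% of the tested genes, and 0 had all FT libraries below, against 36.9% of the tested genes. In the other 5 (FST, TGFB2, TGFB3, TGFBR1 and TGFBR2) FT_1 was above all WT libraries and both FT_2 and FT_3 were below all of them, an order found in 921 tested genes (6.83%). With TMM scaling of the counts in place of FPKM this order held in 4 of them, all but TGFBR1, and in 771 tested genes (5.72%), while the same 5 genes had all FT libraries above, beside 28.3% of tested genes with all FT above and 29.4% with all below. FT_1 had the highest level of all 6 libraries in 9 of the 10, all but INHBA, compared with 27.1% of tested genes. It was at least 2-fold above the mean of FT_2 and FT_3 in 5 (INHBB, FST, TGFB2, TGFB3 and TGFBI), compared with 11.0% of tested genes. The direction of the log2 fold change turned without FT_1 in FST, TGFB2, TGFB3 and TGFBR1. The part of the epithelial markers of FT_1 in these values was not tested, and INHBA was as high in FT_2 and FT_3, where those markers summed to 12.5 and 11.8.

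At the threshold applied to all genes, a Benjamini-Hochberg adjusted p under 0.05 with a change of more than 1 on the log2 scale, edgeR called 8.26% of the 13482 genes higher in FT cells and 7.5% lower. Of the 10 genes, 4 were past it as higher (INHBA, INHBB, FSTL3 and TGFBI) and 0 as lower. Without FT_1 it called 10.7% of genes higher and 11.7% lower, with INHBA, INHBB and TGFBI higher and FST and TGFB3 lower. INHBA alone was past it without WT_1 or without WT_2, and INHBA and INHBB without WT_3. TGFBI was not past it with scaling by total counts or with no filter on low counts, and with limma neither TGFBI nor FSTL3 was. Since the genes were selected on this contrast, these counts add nothing to the values above. Of all calls, 1113 were higher and 1011 lower, so 52.4% were higher. This share was 47.9% without FT_1 and 39.0% with scaling by total counts alone, where the median over the tested genes was -0.12 on the log2 scale instead of 0.03, and 29.9% and 33.6% with limma on log2(FPKM + 1) and log2(FPKM + 0.1), where test, filter and scaling all differ.

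**Figure D4:**
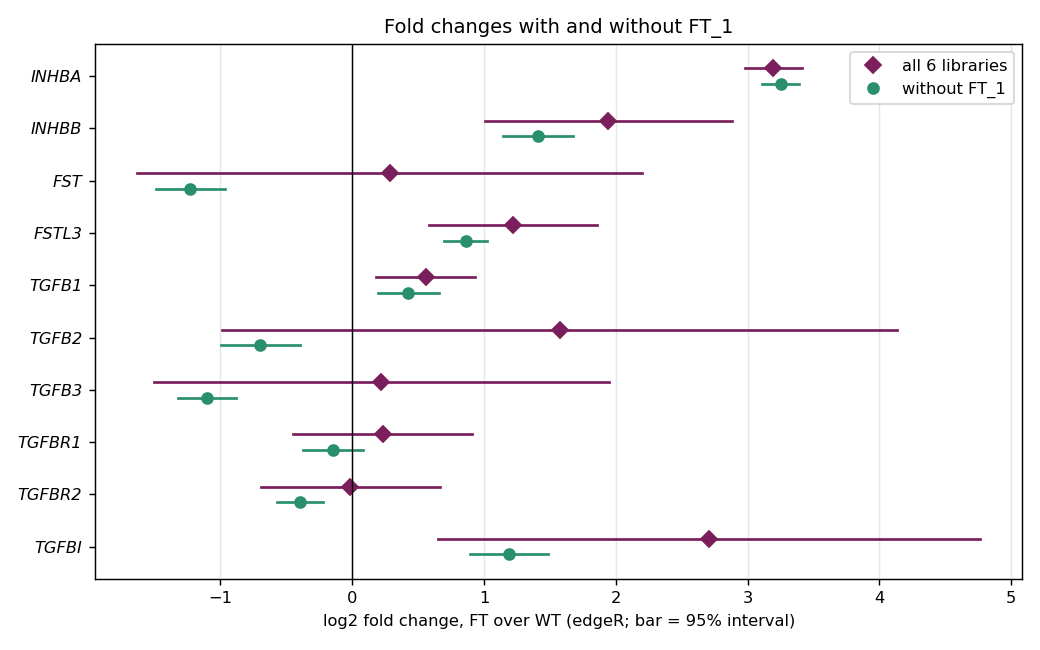
Log2 fold change of FT over WT cells from edgeR for the 10 genes, with bars for the 95% interval (diamonds, all 6 libraries; circles, without FT_1). The interval of INHBA lies near 3 in both fits, while FST, TGFB2 and TGFB3 are on opposite sides of 0 with and without FT_1.

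The wider pathway was described through 6 lists of other genes, 68 in all, of which 66 were in the table and 60 were tested. INHBC and LEFTY2 had no row of that name and were not analysed here. Across the lists 10 genes rose in FT cells, 2 fell and 48 did not pass the threshold, where 8.26% of all tested genes were called higher and 7.5% lower. The median log2 fold change was 0.48 against 0.03 for all tested genes, and without FT_1 it was 0.25 against -0.02. Without FT_1, 14 rose and 2 fell, where 10.7% and 11.7% of all tested genes did, and 11 genes of the lists were called in both fits. Both falls were among the target genes. With the fold threshold kept, the other 5 lists had 0 lower genes in edgeR also at an unadjusted p under 0.05, and 0 in DESeq2. With scaling by total counts and with limma 3 fell, the added gene being the co-receptor TGFBR3. Of all tested genes 9.98% fell with total counts, and 8.11% and 10.8% with limma on log2(FPKM + 1) and log2(FPKM + 0.1). Without WT_2 6 rose, where 5.16% of all tested genes did, and without WT_1 or without WT_3 1 fell, where 5.29% and 5.65% did.

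Other receptors did not pass the threshold, with 0 of 6 tested genes called in either direction by edgeR with or without FT_1, beside 8.26% higher and 7.5% lower of all tested genes (10.7% and 11.7% without FT_1). With the fold threshold kept, edgeR passed 1 as higher and 0 as lower at an unadjusted p under 0.05, beside 1366 and 1190 of all tested genes. DESeq2 called 1 higher and 0 lower, beside 9.72% and 8.73% of all tested genes. In both cases the higher gene was ACVR1B, the type I receptor of activin. ACVR1B, named after its values were seen, had an FPKM of 5.42 in FT_1, 1.85 and 1.71 in FT_2 and FT_3 and 1.41, 0.97 and 1.43 in WT_1 to WT_3. All FT libraries were above all WT libraries, FT_1 by the most. ACVR2A, a type II receptor of activin also named after its values were seen, went the other way, with at most 4.44 in FT libraries and 6.02 to 6.82 in WT libraries, a log2 fold change of -0.66 (edgeR adjusted p = 0.0185). The median log2 fold change of the list was -0.34, and 0.05 without FT_1. TGFBR3 (betaglycan), the co-receptor that presents TGFB2, had an FPKM of 45.53 in FT_1, with 61.36 and 66.73 in FT_2 and FT_3, against 134.17, 113.04 and 135.59 in the WT libraries. All FT libraries lay below all WT libraries, and its log2 fold change of -0.98 (edgeR adjusted p = 0.00832) missed the fold threshold narrowly. It passed with scaling by total counts (-1.13), with limma on log2(FPKM + 1) (-1.14), and without FT_2 (-1.02), FT_3 (-1.11) or WT_2 (-1.06). It did not pass without FT_1 (-0.82), WT_1 (-0.95) or WT_3 (-0.93). ENG (endoglin), another co-receptor, had 55.50, 110.95 and 114.54 in FT_1 to FT_3 and 138.94 to 144.31 in WT libraries, with a log2 fold change of -0.42 (edgeR adjusted p = 0.285).

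Among other activin-class ligands, 1 of 3 tested genes rose and 0 fell, beside 8.26% and 7.5% of all tested genes. GDF11, a relative of myostatin, had an FPKM of 6.10, 10.77 and 9.70 in FT_1, FT_2 and FT_3, against 5.14, 3.78 and 5.34 in the WT libraries. The FT libraries were above all WT libraries, and FT_1 was the nearest to them. Its rise of 1.06 on the log2 scale (standard error 0.27, edgeR adjusted p = 0.0259) was no longer called without any of FT_2 (0.89), FT_3 (0.98), WT_1 (1.11), WT_2 (0.91) or WT_3 (1.15), nor with scaling by total counts (0.90) or with limma (0.75 and 0.86), but was called without FT_1 (1.27).

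INHBE, which encodes the βE chain of activin E and is best known from liver, was found almost wholly in FT_1. It had 3267 counts in FT_1, 25 and 35 in FT_2 and FT_3 (an FPKM of 0.30 and 0.37) and 0 in all 3 WT libraries. Against a floor of 3 counts over the WT group, the depth-scaled counts of FT cells were at least 1173-fold higher, and at least 34.3-fold higher without FT_1. edgeR did not call it with all libraries and no block (adjusted p = 0.0785), but called it with a replicate block (adjusted p = 0.0176) and without FT_1. Its FPKM in FT_2 and FT_3 was 1.0% and 1.23% of that in FT_1, and these percentages were 1.37% and 0.866% for KRT14 and, for KRT8, 1.13% and 0.725%. Whether the low counts of these genes in FT_2 and FT_3 came from RNA of those cells or from reads of FT_1 was not tested, and the bound and the call without FT_1 rest on these counts. INHA, the inhibin α chain that turns activin chains into inhibin, was at an FPKM of 0.04 to 0.28 in every library, and MSTN and NODAL were at 0.06 or less.

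The list on the latent complex and its activation held 10 tested genes, of which 2 rose and 0 fell, beside 8.26% and 7.5% of all tested genes. The median log2 fold change was 0.97, and 0.61 without FT_1. LTBP4, a protein that anchors latent TGFB1 in the matrix, had an FPKM of 47.25, 63.75 and 69.63 in FT_1, FT_2 and FT_3, against 8.92, 8.42 and 10.99 in WT_1 to WT_3. It was high in all FT libraries with no overlap, and rose by 2.83 (standard error 0.20, edgeR adjusted p = 0.000697), or 2.99 without FT_1. THBS1, thrombospondin-1, an activator of latent TGF-β, had 6517.14, 6785.89 and 7022.19 in FT_1 to FT_3 and 1815.05, 1725.96 and 2249.27 in WT_1 to WT_3. All FT libraries were again above all WT libraries, with a rise of 1.97 (standard error 0.20, edgeR adjusted p = 0.00135). THBS1 was already known to differ here when the lists were written. All the lists were chosen with earlier results of these data known, so no gene on them is independent support.

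Other genes of that list went different ways. FURIN, LTBP3 and ITGB8, named after their values were seen, were not called, though all FT libraries were above all WT libraries. Their log2 fold changes were 0.98, 0.96 and 1.45 (edgeR adjusted p = 0.00101, 0.0328 and 0.0742), and 0.97, 0.60 and 0.62 without FT_1. FBN1, the microfibril protein to which latent complexes attach, had an FPKM of 159.45, 154.91 and 166.50 in FT_1 to FT_3 and 293.94, 248.66 and 300.26 in WT_1 to WT_3. Each FT library was below all WT libraries, but its log2 fold change of -0.65 (edgeR adjusted p = 0.0103) was short of the fold threshold. LTBP2, a microfibril protein of the same family that does not hold TGF-β, had 147.77 in FT_1, with 41.25 and 50.59 in FT_2 and FT_3 against 59.31 to 73.34 in WT libraries, and its log2 fold change was 0.39 with all libraries and -0.39 without FT_1. LTBP1 was lowest in FT_1 (17.85) and highest in FT_2 and FT_3 (51.89 and 53.06), with 19.65 to 25.28 in WT libraries, and it was called only without FT_1 (1.38) in edgeR and with all libraries in DESeq2. LTBP1 was named after its values were seen. ITGB6, the epithelial integrin chain that activates latent TGF-β, had 354 counts in FT_1 and 0 in the other 5 libraries, and it was also named after its values were seen.

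Of the 7 tested intracellular transducers 0 were called by edgeR, with or without FT_1 (all tested genes, 8.26% higher and 7.5% lower, or 10.7% and 11.7% without FT_1). With the fold threshold kept, 0 also passed at an unadjusted p under 0.05, with DESeq2 or with limma. SMAD2 had an FPKM of 45.20, 28.51 and 29.48 in FT_1, FT_2 and FT_3, and 36.41, 37.07 and 37.86 in the WT libraries. It followed the order of TGFBR2, highest in FT_1 and lowest in FT_2 and FT_3, with a log2 fold change of 0.05 (edgeR adjusted p = 0.859) that was -0.18 without FT_1 and -0.10 with scaling by total counts. SMAD4, the partner shared by all SMAD complexes, had 39.14, 34.53 and 34.62 in FT_1 to FT_3 and 34.50, 32.58 and 30.65 in WT_1 to WT_3, a log2 fold change of 0.31 (edgeR adjusted p = 0.0306).

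Of the 14 inhibitors inside the cell or at its membrane, 2 rose and 0 fell, beside 8.26% and 7.5% of all tested genes. The median log2 fold change was 0.30, and 0.10 without FT_1. PMEPA1, a membrane protein that TGF-β induces and that sequesters SMAD2 and SMAD3, had an FPKM of 33.42 in FT_1, with 7.50 and 9.37 in FT_2 and FT_3, against 2.21, 1.57 and 1.71 in the WT libraries. All FT libraries were above all WT libraries, FT_1 by the most. The rise was 3.34 (standard error 0.63, edgeR adjusted p = 0.00985) and 2.37 without FT_1, and without WT_2 the adjusted p from edgeR was 0.0524. TGIF2, a repressor that binds SMADs, had 8.53, 3.63 and 3.85 in FT_1 to FT_3 and 1.53, 1.91 and 2.06 in WT_1 to WT_3.

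TGIF2 rose by 1.69 (standard error 0.37, edgeR adjusted p = 0.0155), with all FT libraries above all WT libraries, and by 1.20 without FT_1. It was not called without WT_1 (1.57), WT_2 (1.72) or WT_3 (1.78). FKBP1A, which binds the type I receptor and keeps it silent without ligand, had 241.01, 281.60 and 267.77 in FT_1 to FT_3 and 379.51, 410.40 and 345.91 in WT_1 to WT_3, a log2 fold change of -0.36 (edgeR adjusted p = 0.0482) that did not reach the fold threshold. SMURF2, a ubiquitin ligase that marks the receptors for breakdown, had 46.52 to 60.06 in FT libraries and 46.09 to 55.41 in WT libraries, so the groups overlapped.

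Of the fibroblast target genes, the longest list, 5 of 20 tested rose and 2 fell, where 8.26% of all tested genes were called higher and 7.5% lower. Their median log2 fold change was 0.78 with and without FT_1. CNN1, calponin of the contractile apparatus, had an FPKM of 205.04, 261.20 and 258.12 in FT_1, FT_2 and FT_3, against 29.27, 38.74 and 29.73 in the WT libraries. It rose by 3.05 (standard error 0.18, edgeR adjusted p = 0.000523), with all FT libraries far above all WT libraries. ACTA2, the actin of smooth muscle and myofibroblasts, had 1372.02 in FT_1, with 2420.57 and 2378.19 in FT_2 and FT_3, and 549.82, 502.68 and 627.17 in WT_1 to WT_3. The rise of ACTA2 was 2.04 (standard error 0.27, edgeR adjusted p = 0.00285), and no FT library overlapped a WT library. Both genes are on the smooth muscle marker list too, and ACTA2 overlaps FAS on the opposite strand over 851 bases, with strand use not stated.

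JUNB, an immediate early transcription factor, had an FPKM of 190.68, 162.76 and 160.62 in FT_1 to FT_3, against 61.22, 65.55 and 72.67 in WT_1 to WT_3. It rose by 1.52 (standard error 0.11, edgeR adjusted p = 0.000680), with all FT libraries above all WT libraries. FN1, the matrix protein fibronectin, had 7499.22, 1779.76 and 1830.53 in FT_1, FT_2 and FT_3 and 284.28, 239.10 and 304.22 in the WT libraries. FT_1 was the highest, and the rise was 3.89 (standard error 0.67, edgeR adjusted p = 0.00729) with all libraries and 2.88 without FT_1. FN1, like THBS1, had been seen to differ before the lists were written, and the other genes of the lists are no independent support either.

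The remaining called target genes were named after their values were seen. CCN1, a matricellular protein, had an FPKM of 384.61, 481.44 and 435.90 in FT_1 to FT_3 and 101.79, 228.93 and 248.09 in WT_1 to WT_3. It rose by 1.33 (standard error 0.35, edgeR adjusted p = 0.0280) with all FT libraries above all WT libraries, but it was not called without FT_1 (1.42), FT_2 (1.25), FT_3 (1.32) or WT_2 (1.47). SNAI2, a repressor known from epithelial-mesenchymal transition, had 7.73 in FT_1, with 22.55 and 26.45 in FT_2 and FT_3, against 110.97, 115.70 and 96.77 in the WT libraries. It fell by 2.34 (standard error 0.46, edgeR adjusted p = 0.0112), with all FT libraries below all WT libraries, and by 1.97 without FT_1. CDKN2B, a cell cycle inhibitor that TGF-β induces in epithelial cells, had 5.79, 1.64 and 1.62 in FT_1 to FT_3 and 11.75, 11.37 and 12.18 in WT_1 to WT_3.

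CDKN2B fell by 1.81 (standard error 0.53, edgeR adjusted p = 0.0404), with all FT libraries below all WT libraries, and by 2.68 without FT_1. It was not called without FT_2 (-1.52), FT_3 (-1.52), WT_1 (-1.82), WT_2 (-1.84) or WT_3 (-1.79). The fibrillar collagen genes did not pass the threshold. COL5A1 and COL3A1 were named after their values were seen. COL5A1 had all FT libraries above all WT libraries, with a log2 fold change of 0.79 (edgeR adjusted p = 0.00923), or 0.93 without FT_1. COL3A1 had a log2 fold change of -0.38 (edgeR adjusted p = 0.442), or -0.06 without FT_1. COL1A1 had an FPKM of 914.12, 2610.75 and 2688.78 in FT_1, FT_2 and FT_3, against 2287.57, 2211.63 and 2330.78 in the WT libraries. Its log2 fold change of 0.03 (edgeR adjusted p = 0.962) was 0.39 without FT_1 (edgeR adjusted p = 0.00044). It was -0.17 without FT_2, -0.21 without FT_3 and -0.13 with scaling by total counts. COL1A2 had 1176.65, 1974.54 and 1932.84 in FT_1 to FT_3 and 2279.04, 2076.73 and 2433.81 in WT_1 to WT_3. Its log2 fold change was -0.25 (edgeR adjusted p = 0.451), or -0.04 without FT_1. For COL1A1 and COL1A2, FT_1 was the lowest library.

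In edgeR 5 genes not called with all libraries and no block were called higher without FT_1, namely INHBE, LTBP1, ELN, VCAN and LOX, and the last 4 were named after their values were seen. LTBP1, ELN, VCAN and LOX were lower in FT_1 than in FT_2 and FT_3. ELN, elastin, had an FPKM of 23.41 in FT_1, with 289.06 and 324.07 in FT_2 and FT_3, against 45.82, 36.68 and 57.56 in the WT libraries, and was called without FT_1 (2.89) but not with all libraries in edgeR (2.35), though DESeq2 called it. VCAN, the proteoglycan versican, had 20.73, 79.11 and 82.58 in FT_1 to FT_3 and 30.01 to 34.69 in WT libraries, with log2 fold changes of 1.46 without FT_1 and 1.05 with all libraries. LOX, which cross-links collagen and elastin, had 242.50, 344.49 and 359.95 in FT_1 to FT_3 and 173.88 to 206.36 in WT libraries, with 1.03 and 0.86. Other target genes had FT_1 as the highest library, such as FN1 above, POSTN and CCN2, and POSTN and CCN2 were named after their values were seen. POSTN had an FPKM of 212.30, 34.02 and 38.52 in FT_1 to FT_3 and 35.03 to 39.59 in WT libraries. Its log2 fold change was 1.49 with all libraries and 0.13 without FT_1. CCN2 had 2029.52, 544.61 and 528.84 against 702.89 to 747.59, with 0.67 and -0.25. Unlike FN1, neither had all FT libraries above all WT libraries, and neither was called in these fits.

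**Figure D5:**
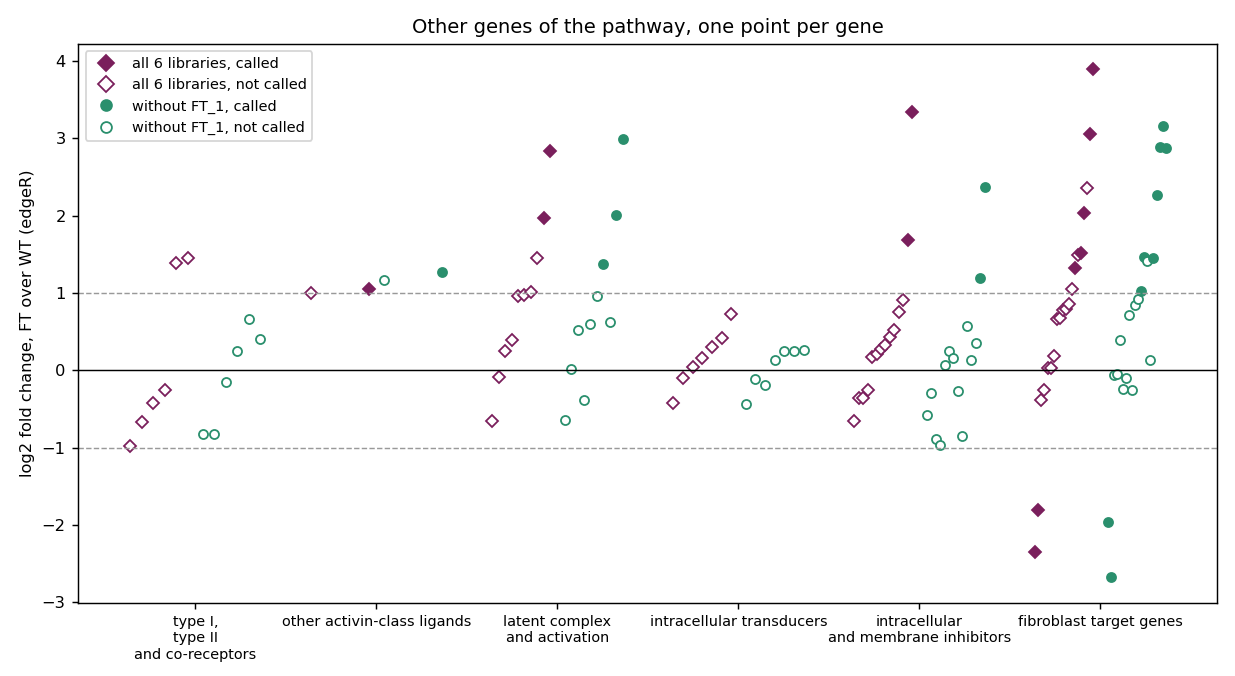
Log2 fold change of FT over WT cells from edgeR for the tested genes of the 6 pathway lists, with 1 point per gene (diamonds, all 6 libraries; circles, without FT_1; filled, called; dashed lines at 1 and -1). INHBE is left out because it had 0 counts in all WT libraries, and no receptor or transducer is called in either fit.

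The table annotates 8 of the 10 genes with the TGF-beta signaling pathway of KEGG, all but FSTL3 and TGFBI, and 71 further genes with it, a list taken up after the data were seen that also holds the BMP branch. Of the 64 of these that were tested, 7 rose and 5 fell in FT cells, beside 8.26% and 7.5% of all tested genes. The median log2 fold change of the list was 0.21 and, without FT_1, -0.02, with 11 rising and 7 falling of 65 tested, beside 10.7% and 11.7% of all tested genes in that fit.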

How the data were processed

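The authors aligned reads with HISAT, and StringTie and edgeR gave their expression estimates. The submitters' processing notes name HISAT2 2.0, StringTie 1.3.0, Bowtie 0.12.2 and the mouse build mm8, although the gene IDs are those of cattle, and the build of the coordinates was not given otherwise. The deposited table held raw counts and FPKM values for every library, and the deposited FPKM values are counts scaled by gene length and library total. Its other columns held annotation. Counts were tested with edgeR 4.0.16 in R 4.3.3 (TMM scaling, filterByExpr, robust quasi-likelihood test, p adjusted over all tested genes by Benjamini-Hochberg). DESeq2 1.42.0, limma 3.58.1 on log2(FPKM + 1) and log2(FPKM + 0.1) where the mean FPKM reached 0.5, other scalings, no filter, an unadjusted p, a replicate block and leaving out each library were alternatives. Intervals are at 95%. The calls were tested on simulated counts with 200 changed genes and the same spread in every library. No simulated library stood apart as FT_1 does, so that test does not cover the calls under such a spread. The 10 genes and the pathway and marker lists were chosen with earlier results of these data known. The named pathway genes were, in each list, up to 4 called genes with the smallest p and up to 2 uncalled genes with the highest mean FPKM. Marker genes without a row of that name, such as PTPRC and SOX10, were not analysed here.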

Additional observations from a re-analysis of the deposited data

How the results depend on the processing

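Against 1113 genes higher and 1011 lower in FT cells, limma called 423 higher and 993 lower on log2(FPKM + 1) and 671 higher and 1326 lower on log2(FPKM + 0.1). Leaving out each library in turn gave 715 to 1477 higher and 690 to 1605 lower, and for the pathway lists 6 to 14 higher and 1 to 2 lower, with 3 lower under total counts and limma. The KEGG list, added after the data were seen, held 5 lower genes against 2. Among the 10 genes the sign of the fold change turned for FST (-1.23 without FT_1, -0.44 and -0.47 with limma, -0.39 with the replicate block), TGFB3 (-1.10, -0.33 and -0.43, -0.32 likewise), TGFB2 and TGFBR1 (-0.70 and -0.15 without FT_1) and TGFBR2 (from -0.02 to 0.13 without FT_2, 0.15 without FT_3, 0.02 without WT_1 and 0.01 without WT_3). Among the pathway genes named by rule it turned for LTBP2 (-0.39 to 0.69 over the left-out libraries), SMAD2 (-0.18 to 0.16 over them, -0.10 with total counts, -0.14 and -0.14 with limma) and COL1A1 (-0.21 to 0.39 over them, -0.13 with total counts, -0.29 and -0.29 with limma, -0.12 with the replicate block). The cause was not tested. No pairing by replicate number was seen: deviations of same-numbered libraries correlated at -0.001, -0.02 and 0.02, and those of other pairs at -0.03 to 0.03. With 3 libraries a group and FT_1 apart from the others, such correlations cannot exclude a pairing. The replicate block called 834 genes higher and 793 lower. With it edgeR called INHBE (adjusted p = 0.0176), while GDF11 and TGIF2 were not called and TGFBI was not past the threshold. With 3 fetuses a group, intervals are wide for genes in which FT_1 departs from FT_2 and FT_3, and depth limits none of the 10 genes.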
